A study of Homo sapiens with 2 samples.

Results

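Connexins are the subunits of gap junctions. HARA-B4, a bone-seeking subline of the human squamous cell lung cancer line HARA, was compared with its parent at 8 connexin genes (GJA1, GJA3, GJB2, GJB5, GJB6, GJC1, GJD2 and GJD3) and at PANX1, which encodes pannexin 1. These 9 genes, out of 19775 named on the array, were picked after connexins had been seen higher in HARA-B4 in these same arrays. Their values are therefore a description, and no test was made on them. All probe sets whose only gene symbol in the platform annotation was one of the 9 were taken, which gave 17 of the 54675 on the array. Per the labels, both established lines grew in the same RPMI medium with 10% serum, penicillin and streptomycin and had no further treatment named. Total RNA was labelled with biotin, and 1 Affymetrix array was hybridised for each line (n = 1 per group), which limits the precision of every value. The labels do not say how HARA-B4 was derived or whether it is a single clone.

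A connexon is a ring of connexin subunits in the plasma membrane, and 2 connexons of touching cells dock to form a channel that passes ions and small metabolites. Connexins of the alpha, beta, gamma and delta groups carry the symbols GJA, GJB, GJC and GJD. Stratified squamous epithelium is known for GJA1 (Cx43) throughout its living layers and for GJB2 (Cx26) and GJB6 (Cx30), which are raised in proliferating or wounded epidermis. Pannexin 1 resembles connexins in fold but not in sequence, and forms single-membrane channels that release ATP.

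Upstream sequences are shown for 4 of the connexins that stood higher in HARA-B4. They are given because 3 of these genes (GJA3, GJB2 and GJB6) lie side by side in RefSeq gene order and differed together. RefSeq (GRCh38.p14) gave a promoter for 6 of the 9 genes. None was found by symbol for GJC1, which also stood higher, so the windows do not cover it. The promoters of GJA1, GJA3, GJB2 and GJB6 are printed as the 250 bases before the annotated start, 5′ to 3′ on the gene's own strand. Capitals mark matches, on either strand, to TGACTCA (an AP-1 motif) or GGGCGG (a GC box). TATAAA was also searched for and was found in none of the 4 windows.
GJA1, chr6:121435396-121435645, plus strand: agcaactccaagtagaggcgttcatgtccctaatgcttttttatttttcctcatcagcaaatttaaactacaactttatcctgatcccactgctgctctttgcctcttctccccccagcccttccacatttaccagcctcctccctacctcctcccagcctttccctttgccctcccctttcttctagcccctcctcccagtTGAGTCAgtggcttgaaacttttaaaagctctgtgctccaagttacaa
GJA3, chr13:20161053-20161302, minus strand: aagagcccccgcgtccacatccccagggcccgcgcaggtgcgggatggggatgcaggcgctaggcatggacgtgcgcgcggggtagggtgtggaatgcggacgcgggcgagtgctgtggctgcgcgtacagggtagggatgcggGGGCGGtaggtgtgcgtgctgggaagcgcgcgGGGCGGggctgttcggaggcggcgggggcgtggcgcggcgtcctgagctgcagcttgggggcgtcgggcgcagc
GJB2, chr13:20192939-20193188, minus strand: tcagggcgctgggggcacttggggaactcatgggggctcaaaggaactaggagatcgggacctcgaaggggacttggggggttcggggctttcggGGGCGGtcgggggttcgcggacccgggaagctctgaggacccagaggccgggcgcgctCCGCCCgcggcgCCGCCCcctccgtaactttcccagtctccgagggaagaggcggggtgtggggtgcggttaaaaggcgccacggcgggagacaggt
GJB6, chr13:20230979-20231228, minus strand: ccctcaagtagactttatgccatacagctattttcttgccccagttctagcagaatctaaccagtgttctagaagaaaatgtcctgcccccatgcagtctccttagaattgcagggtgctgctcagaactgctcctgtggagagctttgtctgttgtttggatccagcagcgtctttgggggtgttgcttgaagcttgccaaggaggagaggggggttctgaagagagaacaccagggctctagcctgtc

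The 4 windows were unlike each other. That of GJA1 held 1 AP-1 match, starting 48 bases before the start site, and no GC box. Those of GJA3 and GJB2 held 2 and 3 GC boxes and no AP-1 match, and that of GJB6 held none of the motifs. GC content was 74.8% for GJA3 and 70.0% for GJB2, against 50.8% for GJB6 and 48.0% for GJA1, with a median of 58.0% over all promoters. In windows of the same length, 4.20% of 35116 RefSeq promoters held the AP-1 motif, 42.6% the GC box and 10.7% TATAAA. The matches are letters in a sequence and were not measured as binding. These 4 windows therefore had no one of the searched motifs in common.

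Signals below are the deposited linear probe set intensities, and differences are log2 of HARA-B4 minus log2 of HARA. A background level of 27.1 was set at the 95th percentile of 165 probe sets for olfactory, taste and vomeronasal receptors, sensory genes assumed silent in these cells. Each gene was represented by its brightest probe set, and a difference of at least 1 on the log2 scale (2-fold) was counted. Because probe sets bind with different strength, the signal of one connexin was not set against that of another. Between probe sets of the same gene on these arrays, the difference had a standard deviation of 0.30 (4830 genes). That spread is between different probe sets only and says nothing of repeat arrays or cultures.

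Both arrays were close in overall level as deposited. The labels name no scaling, and scaling to a common level would by itself give such a match. Their trimmed mean signals were 116 in each line, and the median difference over 10207 genes above background on both arrays was 0.02 with an SD of 0.55. Markers of the labelled squamous type were present: 7 of 7 measured basal and squamous markers were above background on both arrays. By the brightest probe set 0 differed by 2-fold, KRT5 standing at 4723 in HARA against 4504 in HARA-B4. Nearest to 2-fold were DSC3, lower in HARA-B4 (log2 difference -0.98), and KRT14, higher (0.90). Another probe set of DSC3 passed 2-fold, at -1.36. Of the blood and bone marrow, osteoblast, osteoclast and endothelial markers, 2 of 6, 0 of 5, 1 of 5 and 2 of 6 were above background, with no difference of 2-fold. PTPRC, a blood marker, and VWF, an endothelial marker, were at background on both arrays. Above it on both were CD79A (63.4 in HARA, 55.2 in HARA-B4), HBB (35.7 and 33.9), PECAM1 (50.6 and 50.4) and MMP9 (48.2 and 55.3). FLT1 was above it in HARA only (27.7).

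All 9 genes were above background on both arrays by their brightest probe set. GJB6, GJB2, GJA1, GJC1 and GJA3 (5 genes) exceeded their HARA level by 2-fold or more in HARA-B4, 0 genes were lower by that much and 4 differed by less. In RNA from a whole culture, a change in the number of cells that express a gene and in its RNA per cell cannot be told apart. Among all genes above background on both arrays, 3.13% passed 2-fold upward in HARA-B4 and 3.57% downward. By probe set, 11 of the 17 were above background on both arrays, and 5 of these passed upward and 0 downward, beside 2.82% and 3.53% of 18220 named probe sets. Since the genes were chosen on this comparison, nothing is read from the contrast between their count and that share. The median difference of the 9 genes was 1.07, beside 0.01 for the 11496 genes above background on at least 1 array. The genes nearest the 2-fold line were GJA3 just above it, at 1.07, and GJD3 below it, at 0.57.

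**Figure D1:**
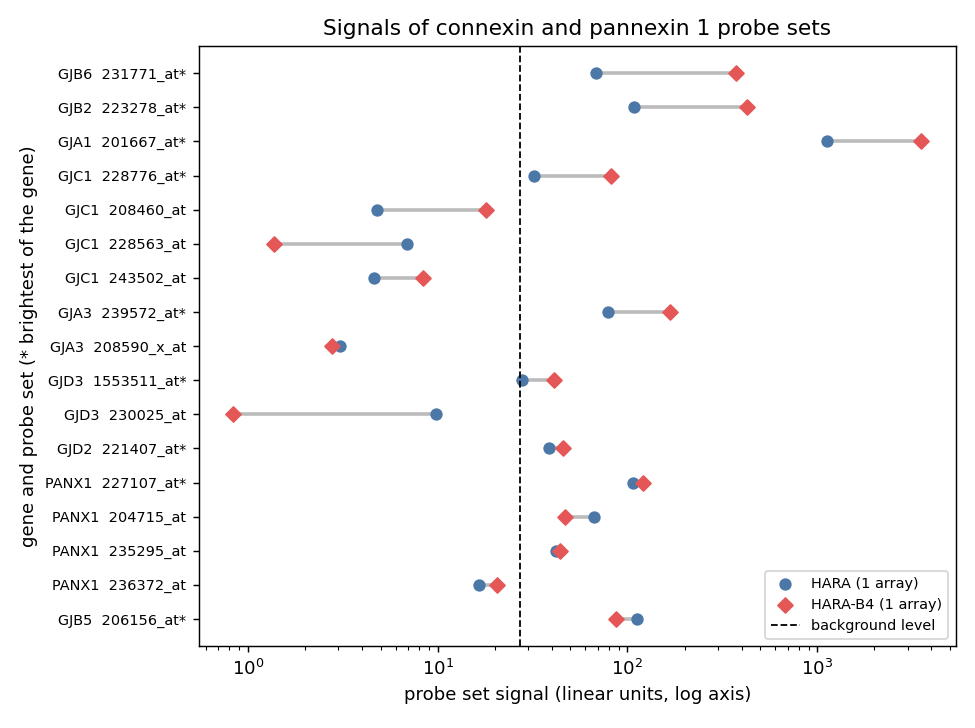
Signal of each of the 17 probe sets in HARA (blue circles) and HARA-B4 (red diamonds) on a log axis, with the background level of 27.1 dashed; each point is 1 array. The brightest probe sets of GJB6, GJB2, GJA1, GJC1 and GJA3 moved to the right in HARA-B4, and 6 probe sets lay at background on both arrays.

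The beta connexins parted. GJB6, which encodes Cx30 of epidermis and inner ear, read 68.5 in HARA against 374 in HARA-B4 (probe set 231771_at). HARA-B4 was 5.47-fold higher, a log2 difference of 2.45, which ranked 22 from the highest among 10207 genes. GJB2, which encodes Cx26 and whose mutations are a common cause of inherited deafness, read 108 in HARA against 426 in HARA-B4 (223278_at). The fold was 3.93 and the log2 difference 1.98, rank 50. Both genes were above the background of 27.1 in the parental line. GJB5, which encodes Cx31.1 of stratified epithelium, read 112 in HARA against 87.0 in HARA-B4 (206156_at). Its log2 difference was -0.37, the only negative one among the brightest probe sets. Each of these 3 beta connexins was measured by 1 probe set, so none has a second reading on the array.

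The alpha connexins GJA1 and GJA3 were both higher. GJA1, which encodes Cx43, the most widely expressed connexin, read 1123 in HARA against 3526 in HARA-B4 (201667_at). HARA-B4 was 3.14-fold higher, a log2 difference of 1.65, rank 93. Its 1 probe set was far above background on both arrays. GJA3, which encodes Cx46, best known from the lens, read 79.2 in HARA against 167 in HARA-B4 by 1 probe set (239572_at), a 2.11-fold difference. Its other probe set (208590_x_at) was at background on both arrays, at 3.07 and 2.76, so the difference of GJA3 rests on 1 of 2 probe sets. It fell under 2-fold (0.94) on the scale log2(signal + 16).

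The gamma and delta connexins were dim. GJC1, which encodes Cx45 of early heart and smooth muscle, read 32.3 in HARA against 81.5 in HARA-B4 (228776_at). The log2 difference was 1.33, with the HARA signal close to the background of 27.1, so its size is uncertain. The other 3 probe sets of GJC1 were at background on both arrays, at 1.38 to 18.0, and disagreed in sign there. With the background higher by 1 log2 unit the bound for GJC1 was 0.59, under 2-fold. GJD2, which encodes Cx36 of electrical synapses, stood at 38.6 in HARA against 45.6 in HARA-B4 (log2 difference 0.24). GJD3, which encodes Cx31.9, stood at 27.8 in HARA against 41.2 in HARA-B4 (0.57), and its second probe set was at background on both arrays. Neither delta connexin reached 2-fold, and GJD3 was barely above background in HARA.

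Pannexin 1 did not reach 2-fold by any probe set above background. PANX1 read 107 in HARA against 120 in HARA-B4 by its brightest probe set (227107_at), a log2 difference of 0.17. Its probe set 204715_at went the other way, from 66.3 in HARA to 46.8 in HARA-B4 (-0.50), and 235295_at stood at 42.0 and 44.2 (0.07). The remaining one (236372_at) was at background on both arrays. The 3 probe sets above background thus had no common direction.

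**Figure D2:**
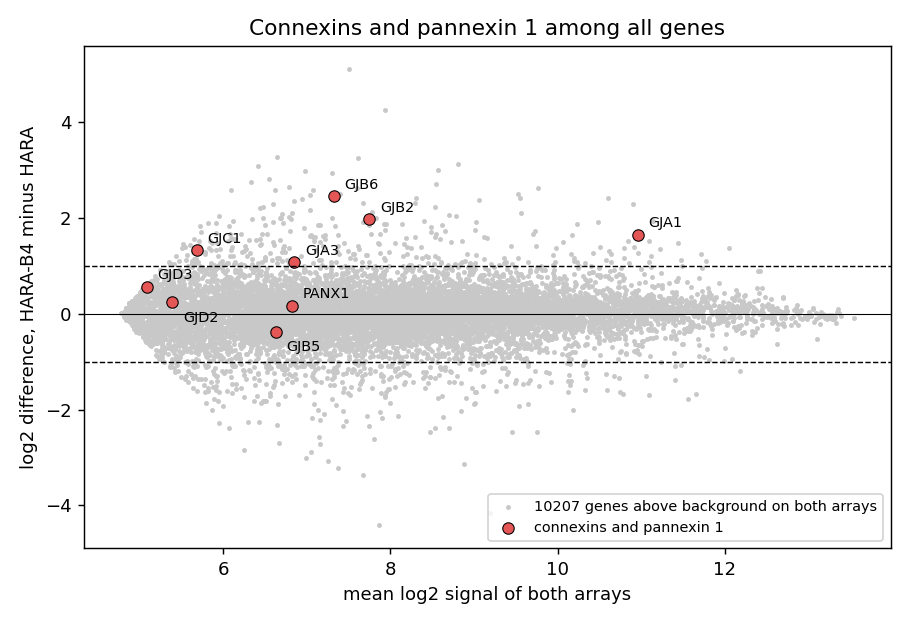
Log2 difference (HARA-B4 minus HARA) against the mean log2 signal of both arrays for 10207 genes above background on both (grey) and the 9 connexin and pannexin genes (red), 1 array per line, with dashed lines at 2-fold. GJB6, GJB2 and GJA1 lie above most genes of like signal, GJC1 and GJA3 closer to the line, and the other 4 within it.

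GJA3, GJB2 and GJB6 are consecutive protein-coding genes on chromosome 13, and none of the 4 genes that flank them reached 2-fold. ZMYM5 and ZMYM2, zinc finger genes next to GJA3, stood at 68.9 and 233 in HARA and at 48.0 and 173 in HARA-B4 (log2 differences of -0.52 and -0.42). On the far side of GJB6, CRYL1, which encodes a crystallin-related dehydrogenase, was at 70.9 and 106 (0.57), and IFT88, an intraflagellar transport gene, at 76.5 and 75.3 (-0.02). CRYL1, next to GJB6, had the largest positive difference of the flanking genes, and both genes on the GJA3 side were negative.

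**Figure D3:**
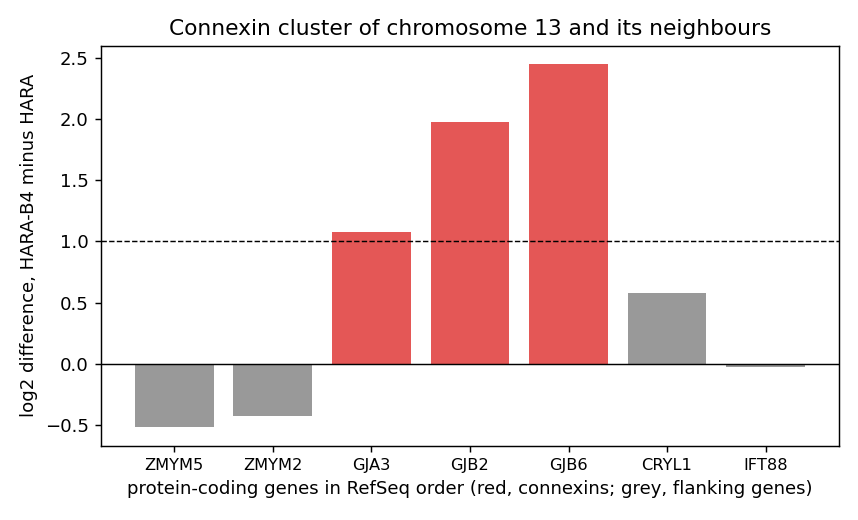
Log2 difference (HARA-B4 minus HARA, 1 array each) for 7 protein-coding genes in RefSeq order on chromosome 13, with the connexins in red, flanking genes in grey and a dashed line at 2-fold. The bars of GJA3, GJB2 and GJB6 reach 1.07, 1.98 and 2.45, and those of the flanking genes lie between -0.52 and 0.57.

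The rest of the family was mostly at background. Of 15 other connexin and pannexin genes listed, 7 had a probe set named in the annotation and 6 of those were at background on both arrays, among them GJB1 (Cx32 of liver and glandular epithelium), GJA5 and PANX3. The 1 above background was PANX2, at 33.1 in HARA against 19.6 in HARA-B4. HARA-B4 is under background there, so its fold is only bounded, at least 1.22-fold lower. Of the whole family of 16 genes with a probe set, 10 were above background, and 9 of those were the genes chosen on this comparison. In the family 5 passed 2-fold upward in HARA-B4, all of them among the chosen genes, and 0 downward. Nothing is therefore read from that count beside the 3.62% upward and 4.2% downward of genes above background on at least 1 array.

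Listed genes whose products bind, move or modify connexins did not differ by 2-fold where they were above background. Of 28 scaffold, trafficking and kinase genes, 25 had a probe set, 23 were above background, and 0 passed 2-fold upward and 0 downward (median 0.12). Among genes above background on at least 1 array, 3.62% passed upward and 4.2% downward, so 0 of 23 says little. TUBA1B, an alpha-tubulin of the microtubules that carry connexons, stood at 9256 in HARA against 9201 in HARA-B4. CAV1, the caveolin that associates with Cx43, stood at 9104 and 8076 (log2 difference -0.17). TJP1, which encodes the scaffold ZO-1 that binds the tail of Cx43, had a difference of -0.24, and SRC, a kinase that phosphorylates Cx43, one of 0.12. The largest differences were 0.81 for EZR, a linker of membrane proteins to actin, and 0.78 for MAPRE1, a microtubule plus-end protein.

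The ATP and adenosine genes that accompany pannexin 1 were mixed as well. Of 27 such genes, 22 had a probe set, 11 were above background, and 0 passed 2-fold upward and 0 downward (median -0.01). Among genes above background on at least 1 array, 3.62% passed upward and 4.2% downward, so 0 of 11 says little. The brightest were ROCK1, a kinase of membrane blebbing, at 1114 in HARA against 564 in HARA-B4 (-0.98, just short of 2-fold), and ADORA2B, an adenosine receptor, at 585 and 739 (0.34). Another ROCK1 probe set above background gave -0.29, as a value or bound. P2RX7, the ATP receptor often paired with pannexin 1, was at background on both arrays. P2RY2, an ATP and UTP receptor, was at background in HARA (15.9) and above it in HARA-B4 (47.0), at least 1.73-fold higher, short of the 2-fold rule.

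Other junctions of the lateral membrane went both ways. Of 14 tight junction and desmosome genes, 12 were above background (median -0.14). Of these, 3 passed 2-fold upward in HARA-B4 and 4 downward, beside 3.62% and 4.2% of genes above background on at least 1 array. The higher ones were CLDN4 (at least 3.28-fold), a claudin, and the desmosomal plaque genes PKP1 (log2 difference 1.82) and JUP, plakoglobin (1.10). The lower ones were PKP2 (-2.89), CLDN1 (-2.46), the desmosomal cadherin DSG2 (-1.30) and CLDN7 (at least 2.16-fold). The second probe set of PKP2 was above background in HARA only, so its value of -0.66 is a bound that falls short of 2-fold. Of 9 large-pore channel genes of other families, 5 were above background and 0 reached 2-fold by the brightest probe set, with a median of -0.37. Beside the same shares, a count of 0 in so short a list says little. LRRC8A, the obligatory subunit of the volume-regulated anion channel, stood at 866 in HARA against 1716 in HARA-B4 (0.99, just short of 2-fold), and LRRC8D at 758 and 410 (-0.89). The second probe set of LRRC8A passed 2-fold, at 1.04.

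**Figure D4:**
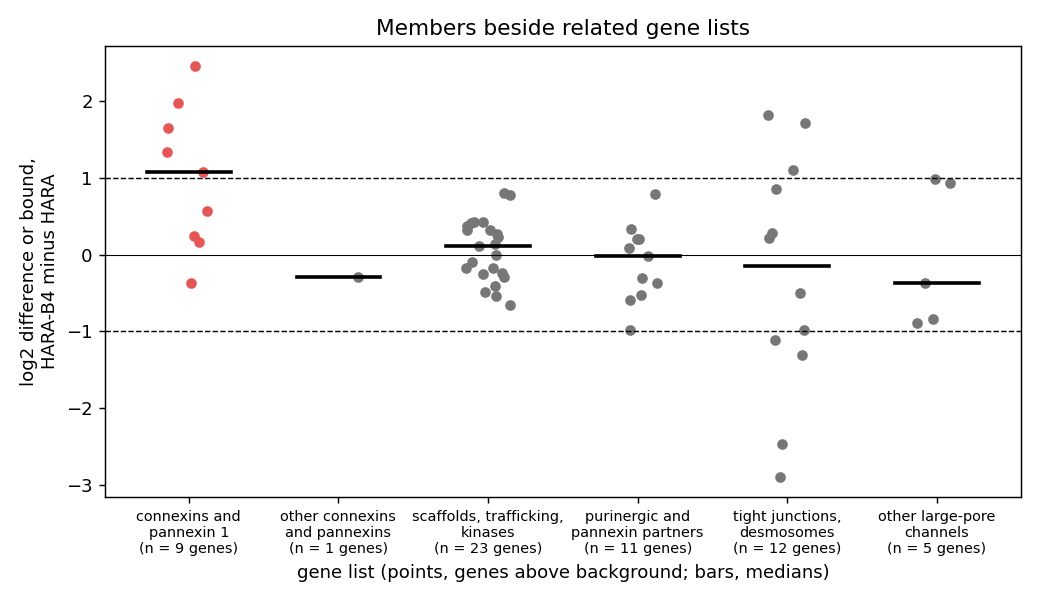
Log2 difference or bound (HARA-B4 minus HARA, 1 array each) of each gene above background in the connexin and pannexin 1 group (red) and 5 related lists (grey), with medians as bars and dashed lines at 2-fold. The connexin and pannexin 1 group, which was chosen for its difference, has a median of 1.07, the related lists lie between -0.37 and 0.12, and the tight junction and desmosome list spreads to both sides.

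Markers of other cell types differed in a few places beside these values. Of 8 fibroblast markers, 3 were above background: FAP was at least 5.70-fold higher in HARA-B4, THY1 at least 2.35-fold lower and COL1A1 had a difference of -0.40, and the summed signal of the list was 290.3 in HARA against 364 in HARA-B4. COL1A2, COL3A1, DCN, LUM and PDGFRB were at background on both arrays. Of 6 neuronal markers, 5 were above background, MAP2 being higher (2.57, its other probe set giving only a bound of 0.56), SYT1 lower (-2.21) and the summed signal 2614 in HARA against 2952 in HARA-B4, while RBFOX3 was at background. Of 7 alveolar and glandular markers measured, 4 were above background and 0 reached 2-fold, with summed signals of 227 and 215. The part of these genes in the connexin values was not tested.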

How the data were processed

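The deposited table holds linear probe set intensities, 1 column per array. Affymetrix Expression Console was used by the authors, per the submitters' processing notes; the labels name no version, summary algorithm or scaling. They entered as log2 values without rescaling. Genes were named from the platform annotation, in which 41097 probe sets had 1 symbol, 1801 several and 11777 none, and 41043 were matched by Entrez ID to RefSeq (GRCh38.p14). The background included receptor pseudogenes. A gene above background on 1 array only had its other value set to background, so its fold is a lower bound. A single array per group leaves no estimate of spread between cultures, so no p-value is given. The members and lists were chosen with earlier results of these data known. Every member is named, each list gene at 2-fold, and the 2 brightest of a list where none reached it; other list genes named (KRT5, marker genes, TJP1, SRC, EZR, MAPRE1, P2RX7, P2RY2, PANX2 and LRRC8D among them) were chosen after their values were seen. Python 3.11.15, pandas 2.3.3 and statsmodels 0.14.6 were used. Alternatives covered scaling, background level, probe set choice, pseudocount and fold.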

Additional observations from a re-analysis of the deposited data

How the results depend on the processing

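The count of 5 members at least 2-fold higher held under median-centring, quantile normalization and lowess detrending. A lower background (90th percentile), removal of _x_at and _s_at probe sets, a 1.5-fold rule and agreement of all probe sets above background also gave 5. Those settings could not lower the count. Each of the 5 genes had 1 probe set above background, which was above it on both arrays and was neither _x_at nor _s_at. The count was 4 with a background higher by 1 log2 unit, where GJC1 (0.59 as a bound) was lost, and 4 with log2(signal + 16), where GJA3 (0.94) was lost. It was 3, GJA1, GJB2 and GJB6 in each case, with the 99th percentile background, the mean of all probe sets and a 3-fold rule. The mean of all probe sets put GJA3 and GJC1 at background, so no difference was given. No member was 2-fold lower under any of the 12 alternatives. Over the settings at 2-fold that gave a value, GJA1 lay between 1.60 and 1.66, GJB2 between 1.83 and 2.01 and GJB6 between 1.98 and 2.49. The 1.98 of GJB6 is a bound, since its HARA signal lay under the 99th percentile background. Of 120 counts for the related lists under alternatives, 108 stayed within 1.5 times the reported count or, where that was 0, at 0. Most of the 108 were such counts of 0, which say little. Only the tight junction and desmosome list had reported counts above 0. Genes near 2-fold crossed it: ROCK1 (lower) with lowess detrending, STOM (lower) and LRRC8A (higher) with the mean of all probe sets, and P2RY2 (higher) and CALHM2 (lower) with the 90th percentile background. Tight junction and desmosome genes at 2-fold lower went from 4 to 5 under quantile normalization, lowess detrending and the mean of all probe sets. Of those not counted by the main rule, DSC3 (-0.98) lay closest to 2-fold lower. No paired analysis was possible because each group holds 1 array. No array could be left out for the same reason, and signal over background limits GJC1, GJD2 and GJD3 most.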

Other observations

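Over 2 arrays a pattern is a single difference, so likeness to a member is only closeness of that value. The 3 genes closest to GJB6, the member with the largest difference (2.45), were IRX2, an Iroquois homeobox gene, at 137 in HARA and 736 in HARA-B4 (2.43), TENM2, a teneurin, at 325 and 1739 (2.42), and GPNMB, a transmembrane glycoprotein, at 55.4 and 310.0 (2.48).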
